A study of Mus musculus with 16 samples.

Results

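The insulin-like growth factors, their receptors and their binding proteins were read from 28 of the 45101 probe sets of an Affymetrix mouse array, in the whole aorta of 16 mice. A probe set was a member when the platform annotation gave it exactly 1 of the 10 symbols Igf1, Igf2, Igf1r, Igf2r, Igfbp2, Igfbp3, Igfbp4, Igfbp5, Igfbp6 and Igfbp7. In addition, 1 probe set annotated with both Airn and Igf2r was left out by that rule. The family was selected on earlier results of these arrays, the measured value among them being the high Igfbp3 signal of diabetic mice on probe set 1423062_at. Igfbp3 is therefore described without p-values, and the adjusted p-values of the other members describe this fit and are no independent support.

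All 16 mice were APOE-/- mice from The Jackson Laboratory, a model of atherosclerosis, aged 18 weeks when the aorta was taken. Each ate a high fat diet for 10 weeks from the age of 8 weeks, and each gave 1 array. In 8 of them diabetes had been induced at 6 weeks with streptozotocin (STZ), which kills pancreatic beta cells, and 8 were non-diabetic. Crossed with this, the diet held ruboxistaurin (RBX), which inhibits the beta isoform of protein kinase C, in 4 mice of either kind. This gave 4 groups of 4 mice, called here non-diabetic, non-diabetic RBX, diabetic and diabetic RBX. The RBX dose, the sex of the mice and whether non-diabetic mice received a vehicle are not given in the sources used here. Since the whole aorta was extracted, fewer cells of a type and less RNA per cell cannot be told apart in any value below.

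IGF-1 and IGF-2 are secreted growth factors that act through the tyrosine kinase receptor encoded by Igf1r, and in the vessel wall they promote growth and survival of smooth muscle cells. The product of Igf2r binds IGF-2 and carries it to lysosomes for breakdown. The binding proteins hold the growth factors in the circulation and the matrix, and can both restrain them and deliver them to cells. Igfbp7 encodes a related protein of low affinity for IGFs that is deposited in the matrix of vessels. Liver is the main source of circulating IGF-1, and the hepatocyte markers Alb, Ttr, Apoa1, Serpina1c, Fgb and Tat were all below the filter on low signal here.

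The regions before the start sites of the binding protein genes that differed most between groups are shown, to set their sequence features beside the values. They are the 250 bases before a start site from RefSeq (build GRCm38.p6), 5′ to 3′ on the strand of the gene. Capitals mark a match, on either strand, to the letters TATAAA of the TATA motif or to GGGCGG, the GC box.
Igfbp3, chr11:7213924-7214173, minus strand: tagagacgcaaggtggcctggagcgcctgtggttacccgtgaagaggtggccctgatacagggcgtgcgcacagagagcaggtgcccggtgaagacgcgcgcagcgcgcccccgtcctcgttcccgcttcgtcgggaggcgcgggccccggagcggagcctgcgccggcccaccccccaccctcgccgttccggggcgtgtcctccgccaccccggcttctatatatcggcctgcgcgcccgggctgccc
Igfbp4, chr11:99040994-99041243, plus strand: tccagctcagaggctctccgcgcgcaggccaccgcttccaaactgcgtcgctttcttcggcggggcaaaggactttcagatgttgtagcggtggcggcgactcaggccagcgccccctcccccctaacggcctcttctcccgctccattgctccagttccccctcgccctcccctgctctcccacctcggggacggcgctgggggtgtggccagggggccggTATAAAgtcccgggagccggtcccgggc
Igfbp5, chr1:72874866-72875115, minus strand: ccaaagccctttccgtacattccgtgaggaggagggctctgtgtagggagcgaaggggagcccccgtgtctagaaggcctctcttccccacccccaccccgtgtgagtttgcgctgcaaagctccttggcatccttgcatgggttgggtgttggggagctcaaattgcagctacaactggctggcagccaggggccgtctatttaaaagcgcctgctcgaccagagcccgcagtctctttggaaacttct
Igfbp6, chr15:102143936-102144185, plus strand: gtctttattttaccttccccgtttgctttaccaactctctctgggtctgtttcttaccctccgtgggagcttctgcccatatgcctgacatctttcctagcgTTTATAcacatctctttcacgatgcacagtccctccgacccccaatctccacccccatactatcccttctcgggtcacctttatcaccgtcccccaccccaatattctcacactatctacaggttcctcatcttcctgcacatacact
Igfbp7, chr5:77408046-77408295, minus strand: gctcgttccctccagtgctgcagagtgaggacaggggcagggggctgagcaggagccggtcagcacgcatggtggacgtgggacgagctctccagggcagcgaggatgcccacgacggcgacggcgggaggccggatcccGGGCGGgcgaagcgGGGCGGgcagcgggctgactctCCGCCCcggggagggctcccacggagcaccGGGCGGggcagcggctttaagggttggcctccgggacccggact

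Besides the TATA box and the GC box, the motifs searched on both strands were the E-box CACGTG, the STAT core TTCNNNGAA and the FOXO core GTAAACA. Over 32851 RefSeq windows of the same length the share that held each was 12.4% for the TATA box, 32.7% for the GC box, 6.02% for the E-box, 7.02% for the STAT core and 3.17% for the FOXO core. All 10 members matched the table, with 14 windows in total, of which 2 held a TATA box, 6 a GC box, 2 an E-box and 0 either of the others. The Igfbp4 window held the letters TATAAA with their first base 28 bases before the start, and the Igfbp6 window held them on the opposite strand with their first base 148 bases before the start. The Igfbp7 window held 4 GC boxes, and those of Igfbp3 and Igfbp5 held no exact match to any of the 5 motifs. Variants of the letters were not searched, so the AT-rich stretches near the start in the Igfbp3 and Igfbp5 windows were not counted. GC content was 73.2% for Igfbp3, 69.2% for Igfbp4, 58.8% for Igfbp5, 49.6% for Igfbp6 and 74.0% for Igfbp7, against a median of 52.4% over all windows. Among coding genes Igfbp2 and Igfbp5 are neighbours on chromosome 1, and Igfbp3 lies beside Igfbp1 on chromosome 11.

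The 4 non-diabetic RBX arrays stood apart in the signal of a control. The signal of the cre hybridisation control, which is added to each sample, was 308745 to 575618 on them, 156465 to 249020 on the non-diabetic, 207830 to 275438 on the diabetic and 261860.1 to 294507 on the diabetic RBX arrays. Between the 3′ and 5′ Actb controls, used to judge RNA and labelling quality, the log2 ratio on them was 1.67 to 2.51, against 0.85 to 1.32, 1.16 to 1.52 and 1.47 to 1.89. It thus overlapped with that of the diabetic RBX arrays. The same ratio of the Gapdh controls was 0.12 to 0.52 on the non-diabetic RBX and 0.31 to 0.47 on the diabetic RBX arrays. It was 0.0029 to 0.25 on the non-diabetic and -0.017 to 0.31 on the diabetic arrays. Of the 12 such comparisons made of cre, Actb and Gapdh between pairs of groups, none passed adjustment in exact permutation tests, the smallest adjusted p being 0.114 (3 at an unadjusted p of 0.0286, the smallest the design allows). Apoe read 36.9 to 453 on the diabetic RBX arrays and 410.4 to 1015 on the other 12, and whether its probe set lies in the disrupted part was not checked here. The aortic cell types were present, with all 6 of 6 markers each of smooth muscle, endothelium, adventitial fibroblasts and macrophages above the filter.

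Differences were tested with limma on the log2 signal of 22496 probe sets with mean log2 signal above the median, each by itself, and rises and falls are those with a Benjamini-Hochberg adjusted p under 0.05. Of the 28 member probe sets 25 passed the filter, with at least 1 for each of the 10 genes. For diabetes without RBX the 1 of 25 called was the Igfbp3 probe set for which the family was selected, so nothing is read from that call; over all probe sets 0.369% were called (0.151% higher). RBX in diabetic mice changed 0 of the 25 in limma (6 at an unadjusted p under 0.05), where 0.0533% of all probe sets were called. Among the 6 is Igfbp3 on 1423062_at, which contains the diabetic values for which the family was selected. Of all 22496 probe sets 2349 had an unadjusted p under 0.05 in this comparison, and 3038 had one for diabetes without RBX. RBX in non-diabetic mice raised 8 and lowered 4, against a background of 27.7%, with 13% of all probe sets called higher and 14.6% lower. Diabetes with RBX raised 4 and lowered 1, against 7.46%, with 5.31% higher and 2.15% lower. The last 2 comparisons both contain the non-diabetic RBX arrays described above. The median log2 fold change of the 25 was 0.33, 0.12, 0.19 and 0.031 in these 4 comparisons, beside 0.010, -0.0031, -0.0039 and 0.0013 over all probe sets. The 25 are not 25 genes: 6 are of Igfbp4, 4 each of Igf1 and Igf1r, and 2 of the selected Igfbp3. The medians thus weigh these genes more and do not measure a shift of the family. For RBX in non-diabetic mice the 12 called probe sets are of 7 genes.

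**Figure D1:**
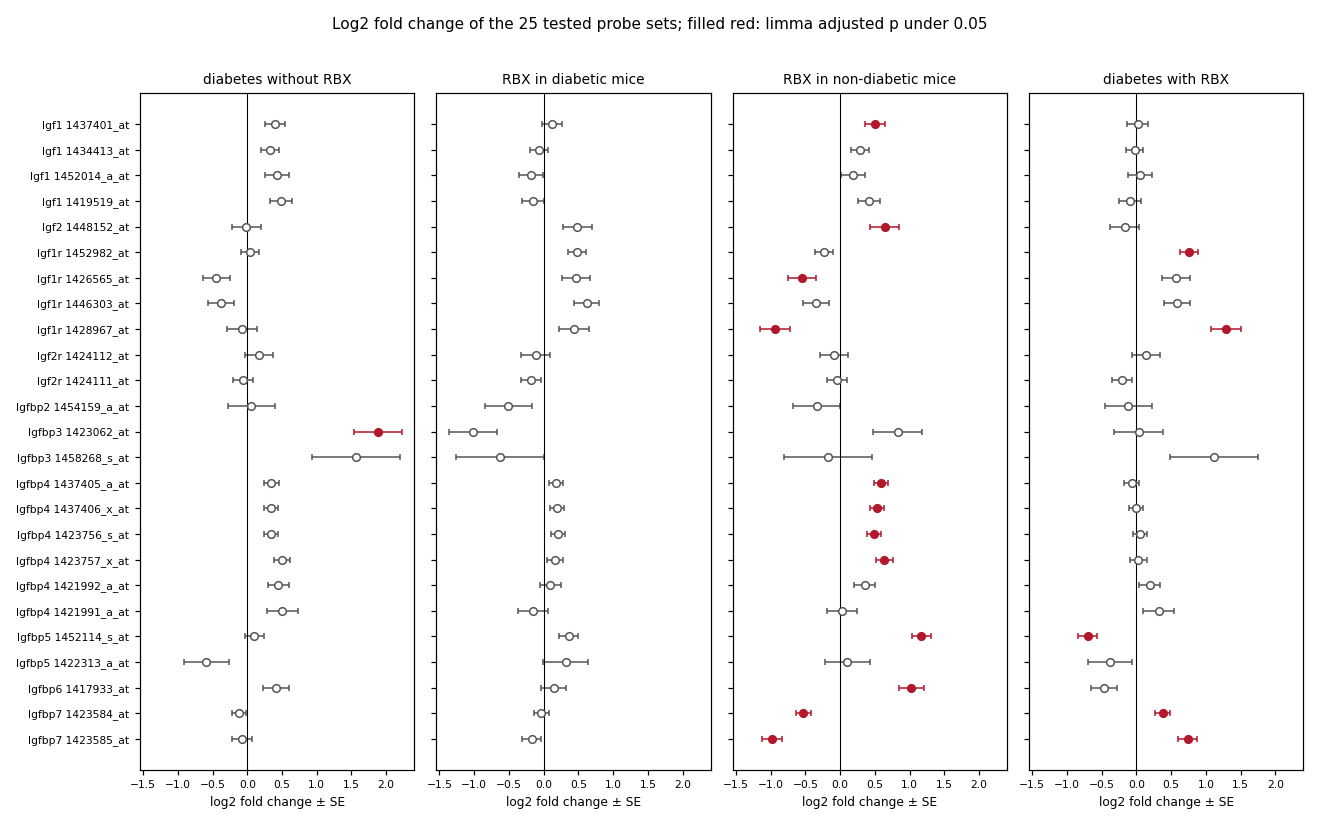
Log2 fold change with its standard error of the 25 tested member probe sets (rows) in the 4 comparisons of 2 groups (columns), filled red where the limma adjusted p was under 0.05. The filled Igfbp3 point is the value for which the family was selected. The 4 Igf1r points spread from -0.94 to -0.23 and the 6 of Igfbp4 from 0.029 to 0.64 for RBX in non-diabetic mice, and most filled points are in the column of RBX in non-diabetic mice, where 27.7% of all probe sets were called.

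Igf1, which encodes the ligand IGF-1, read 11499, 8606, 10397 and 7898 on its probe set of highest mean (1437401_at) in untreated non-diabetic mice, and 14517, 15443, 13320.3 and 10849 in those fed RBX. It read 10568, 15972, 13543 and 10589.8 in the diabetic mice and 13554, 13862, 12356 and 14610.3 with RBX. The groups overlapped in all 4 comparisons, with the non-diabetic mice lowest on average. Igf1 rose with RBX in non-diabetic mice on this probe set, from 9600.0 ± 1646 to 13532 ± 1989 (mean ± SD, n = 4), which is 0.50 on the log2 scale (SE 0.15, limma adjusted p = 0.0162). The other 3 Igf1 probe sets had values of 0.29, 0.19 and 0.42 in that comparison and did not pass (adjusted p = 0.101, 0.45 and 0.0576). For diabetes without RBX the 4 probe sets lay between 0.33 and 0.48, all above 0, with adjusted p from 0.18 to 0.289. For RBX in diabetic mice they lay between -0.18 and 0.12, on both sides of 0. Without non-diabetic mouse 2 or mouse 4 the rise of Igf1 lost its call (0.45, adjusted p = 0.0521, and 0.41, adjusted p = 0.0649).

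Igf2, the fetal growth factor whose expression falls after birth, had 1 probe set above the filter (1448152_at). It read 1237, 1235, 978 and 1109 in non-diabetic and 1892, 2328, 2066 and 1078 in non-diabetic RBX mice. Diabetic mice read 1098, 845, 1544 and 1113, and 1667, 1658, 1497 and 1482 when fed RBX. Among the RBX-fed mice only non-diabetic mouse 4 lay within the range of the untreated non-diabetic mice, and diabetic mice 1 and 4 lay within it too. Igf2 rose with RBX in non-diabetic mice by 0.64 on the log2 scale (SE 0.21, limma adjusted p = 0.0307). With the cre covariate the value was 1.51 (SE 0.38, adjusted p = 0.0961). In diabetic mice the value for RBX was 0.49 (SE 0.21, adjusted p = 0.433). Averaged over both, RBX raised Igf2 by 0.56 (SE 0.15, adjusted p = 0.0153), where 17.2% of all probe sets were called. For diabetes the values were -0.014 without and -0.17 with RBX, neither past the threshold (adjusted p = 0.988 and 0.665). The rise in non-diabetic mice was not called without non-diabetic mouse 3 or 4 or without any of non-diabetic RBX mice 1, 2 and 3 (smallest adjusted p 0.0606, largest 0.0943).

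Igf1r, the signalling receptor of both ligands, differed in its response to RBX between diabetic and non-diabetic mice, on all 4 tested probe sets. Its probe set 1452982_at read 11336, 10116, 9956 and 14086 in non-diabetic and 9704, 10881, 9517 and 8355 in non-diabetic RBX mice. The diabetic mice read 13491, 12649.6, 10842 and 9758, and the diabetic RBX mice 18184, 15004, 17472 and 14172. All 4 diabetic RBX mice were above all 12 others, of which non-diabetic mouse 4 came nearest. This pattern was not counted over all probe sets. On 1428967_at, which the annotation ties to the same accession, the signal was 1533, 1309.8, 822 and 1198 in non-diabetic and 861, 507, 698 and 485 in non-diabetic RBX mice. It was 932, 1292, 1253 and 1051 in diabetic and 1403, 1662, 1663 and 1355 in diabetic RBX mice. The non-diabetic RBX mice were the low group on this probe set, and only their mouse 1 lay above an untreated non-diabetic mouse, mouse 3.

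For diabetes without RBX the Igf1r probe sets 1452982_at, 1426565_at, 1446303_at and 1428967_at lay at 0.042, -0.44, -0.38 and -0.080 on the log2 scale. None passed in limma (adjusted p = 0.934, 0.339, 0.382 and 0.922). On 1426565_at the mean was 2339 in non-diabetic, 1694 in diabetic and 2327 in diabetic RBX mice. On all 4 tested Igf1r probe sets the 4 diabetic RBX mice lay above the 4 diabetic mice, as did 4.13% of all probe sets. None of the 4 passed adjustment in that comparison: the values were 0.48, 0.46, 0.62 and 0.43 (limma adjusted p = 0.18, 0.428, 0.224 and 0.496; 3 at an unadjusted p under 0.05). In non-diabetic mice Igf1r fell with RBX on 1428967_at (log2 fold change -0.94, SE 0.21, adjusted p = 0.0035) and on 1426565_at (-0.54, SE 0.20, adjusted p = 0.0492), while 1452982_at and 1446303_at were at -0.23 and -0.34 and did not pass (adjusted p = 0.188 and 0.172). With the cre control or the Actb ratio as a covariate neither was called, 1428967_at shrinking to -0.16 and -0.22 (adjusted p = 0.91 and 0.817) and 1426565_at turning to 0.61 and 0.43 (adjusted p = 0.382 and 0.484). With 1 array left out the call of 1426565_at was kept only without non-diabetic mouse 3 or non-diabetic RBX mouse 1 or 3, and its value was -0.32 without non-diabetic RBX mouse 4. It was also lost with quantile normalization, no filter, no intensity trend, only the groups compared and the replicate block. The interaction, the RBX effect in diabetic minus that in non-diabetic mice, was above 0 and passed on all 4, at 0.71 (SE 0.18, adjusted p = 0.0203), 1.01 (SE 0.28, adjusted p = 0.0299), 0.96 (SE 0.26, adjusted p = 0.0255) and 1.37 (SE 0.30, adjusted p = 0.0085). The 4 share the mRNA of 1 gene and are not separate evidence, and 9.86% of all probe sets were called for the interaction, 5.89% above 0. The interaction call was lost for 1446303_at without diabetic mouse 4, diabetic RBX mouse 1 or 4 or non-diabetic mouse 2, and for 1426565_at without any 1 of diabetic mice 2 and 3, diabetic RBX mice 1, 3 and 4 and non-diabetic mice 1, 2 and 4. With either covariate none of the 4 was called for the interaction, the values with cre being 0.54, 0.068, 0.91 and 0.73.

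With RBX in both groups, diabetic mice had more Igf1r signal than non-diabetic mice on all 4 tested probe sets, with no overlap of the groups, as had 7.1% of all probe sets. The rise passed for 1452982_at, from 9614 ± 1034 to 16208 ± 1923 (0.75, SE 0.13, limma adjusted p = 0.00199), and for 1428967_at, from 638 ± 177 to 1521 ± 165 (1.29, SE 0.21, adjusted p = 0.00152). Neither was called with the cre covariate (0.64, adjusted p = 0.0938, and 0.89, adjusted p = 0.125). The difference did not pass for 1426565_at and 1446303_at (0.57 and 0.58, adjusted p = 0.0898 and 0.0595). The Igf1r probe set below the filter, 1452108_at, went the other way, averaging 401 in non-diabetic RBX and 235 in diabetic RBX mice, and was not tested. In the same comparison the contractile smooth muscle markers rose in 4 of 6 cases, where 5.31% of all probe sets were called higher. The summed signal of these markers was 288465 to 447255 in the non-diabetic RBX and 444436 to 485705 in the diabetic RBX mice. Their part in the Igf1r result was not tested. Igf2r, the clearance receptor, passed in none of the 7 comparisons on either of its 2 probe sets. Its 95% intervals for diabetes without RBX were -0.26 to 0.59 and -0.37 to 0.24 on the log2 scale, and for RBX in diabetic mice -0.54 to 0.31 and -0.49 to 0.12.

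**Figure D2:**
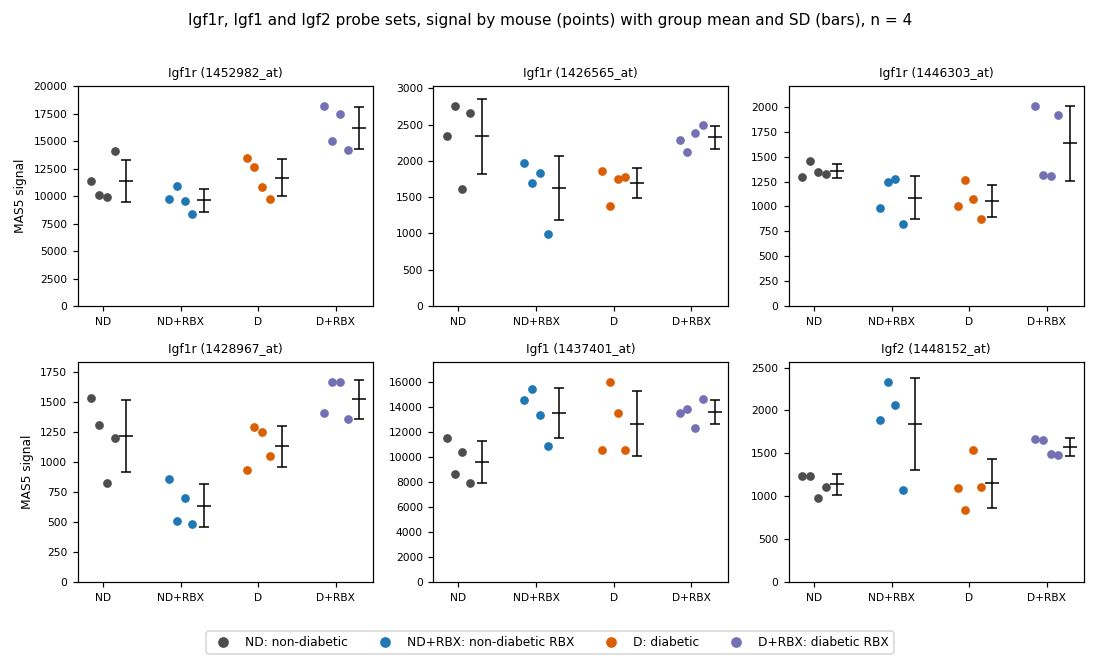
MAS5 signal (vertical axis) of the 4 tested Igf1r probe sets and of 1 probe set each of Igf1 and Igf2, with a point per mouse and the group mean and SD beside it, for the 4 groups of 4 mice (horizontal axis). The diabetic RBX points of Igf1r lie above the diabetic and the non-diabetic RBX points in each of the 4 panels.

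Igfbp3, the main carrier of IGFs in the circulation, varied more over the 16 arrays than the other tested members. On 1423062_at it read 588, 524, 724 and 466 in the non-diabetic and 1814, 3049, 2960.3 and 1161 in the diabetic mice, and these groups did not overlap, as 4.21% of all probe sets were higher in diabetic mice without overlap. It read 976, 1666, 1286 and 492 in the non-diabetic RBX and 1238, 870.3, 1439 and 723 in the diabetic RBX mice. The diabetic group was the highest on average and the non-diabetic group the lowest, and the means of both RBX groups lay between them, each of these overlapping with the other 3 groups. From 575 ± 111 to 2246 ± 916 the diabetic mice were 3.68-fold higher (log2 1.88, SE 0.35). The call of this difference in limma was among the results known when the family was listed. For RBX in diabetic mice the value was -1.02 (SE 0.35), and for RBX in non-diabetic mice 0.83 (SE 0.35). Neither was called in limma, and the former contains the diabetic values for which the family was selected. With RBX in both groups diabetic and non-diabetic mice differed by 0.031 (SE 0.35, interval -0.70 to 0.76).

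The second Igfbp3 probe set (1458268_s_at) read 509.9, 306, 918 and 435 in non-diabetic and 1318, 2347, 1855 and 828 in diabetic mice. Here non-diabetic mouse 3 lay above diabetic mouse 4, so the groups overlapped. It read 391, 1323, 963 and 76.5 in non-diabetic RBX mice, whose mouse 4 was the lowest of all 16, and 1162, 1373, 1029 and 511 in diabetic RBX mice. The values for diabetes without RBX and for RBX in diabetic mice were 1.56 (SE 0.63) and -0.63 (SE 0.63), of the same sign as on the other probe set. For RBX in non-diabetic mice (-0.18, SE 0.63) and for diabetes with RBX (1.12, SE 0.63) the probe sets differed. On 1423062_at the call for diabetes without RBX was lost without diabetic mouse 2 or 3 or without non-diabetic mouse 1, 2 or 4, and with the Actb ratio or the cre control as a covariate. The log2 fold change was 1.96 (SE 0.39) and 1.93 (SE 0.40) with these covariates. These refits use the diabetic values for which the family was selected and are given as a description. Of all probe sets 0.151% were called higher for diabetes without RBX, and 3038 of 22496 had an unadjusted p under 0.05 in limma. In the same mice endothelial markers, of which 1 of 6 rose (Cldn5), summed to 32293 to 36121 in the non-diabetic and 34909 to 56115 in the diabetic group. Macrophage markers, of which 0 of 6 passed in limma (5 at an unadjusted p under 0.05), summed to 136812 to 207500 and 169300 to 220177. No marker of either list was listed at 0, and their part in the Igfbp3 difference was not tested.

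The genes nearest to Igfbp3 in profile were sought over the 16 arrays for its probe set of widest spread (1458268_s_at), by the root mean square difference of mean-centred log2 signals. Among 19074 named probe sets of other genes the 5 nearest were those of Acvr2a (0.69), an activin receptor, Iglon5 (0.69), the receptor phosphatase Ptpru (0.74), the kinetochore protein gene Spc25 (0.74) and the interferon-inducible Rsad2 (0.75). The median over all was 1.21, beside an SD of 1.21 for 1458268_s_at itself, and the difference between the 2 Igfbp3 probe sets was 0.71. For diabetes without RBX the 5 ran from 0.32 (Acvr2a) to 1.28 (Rsad2), against 1.56 for 1458268_s_at. Nearness here is thus a small distance and not a shared pattern of group differences. Igfbp1, the neighbouring gene and a binding protein made chiefly by liver, averaged a signal of 45.7, below the filter.

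Igfbp4, which inhibits IGF action until cleaved by the protease PAPP-A, had 6 tested probe sets, more than any other member. On 1437405_a_at it read 58152, 55534, 64000 and 54644 in the non-diabetic and 64954, 86453, 77005 and 68398 in the diabetic mice. It was 89225, 98759, 87380.3 and 75337 in the non-diabetic RBX and 77412, 93772, 85915 and 77222 in the diabetic RBX mice. All 12 diabetic or RBX-fed mice were above all 4 untreated non-diabetic mice on this probe set, a pattern that was not counted over all probe sets. For diabetes without RBX the diabetic mice were above the non-diabetic mice without overlap on all 6 probe sets, as were the 4.21% of all probe sets given above. The 6 log2 fold changes ranged from 0.34 to 0.51. None passed in limma (6 at an unadjusted p under 0.05, as were 3038 of all 22496), the adjusted p lying between 0.0766 and 0.315. The 6 share the mRNA of 1 gene and are not separate evidence. With weights for array quality 7.97% of all probe sets were called, and all 6 were among them (adjusted p from 0.00401 to 0.0315).

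With RBX in non-diabetic mice Igfbp4 rose on 4 of 6 probe sets, by 0.49 to 0.64 on the log2 scale (limma adjusted p from 0.000525 to 0.00168). On 1437405_a_at it went from 58082 ± 4217 to 87675 ± 9619 (mean ± SD, n = 4; 0.59, SE 0.11). The other pair of probe sets had 0.35 (adjusted p = 0.0945) and 0.029 (adjusted p = 0.936). On both of these non-diabetic RBX mouse 4 was the lowest of the 16 mice, at 11807 and 1775. In diabetic mice RBX gave values from -0.16 to 0.20, of which none passed (smallest and largest adjusted p 0.497 and 0.879). Diabetes with RBX gave -0.067 to 0.32, again with none past it. With quantile normalization the rise was still called on 1437405_a_at, 1423756_s_at and 1437406_x_at, at 0.30, 0.28 and 0.29. The 1437405_a_at rise was 0.54 (SE 0.21, adjusted p = 0.281) with the cre covariate.

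Igfbp5, a binding protein held in the matrix and made by smooth muscle cells and fibroblasts, had its largest values in the non-diabetic RBX mice. On 1452114_s_at the signal was 16017, 14476, 18047 and 15325 in non-diabetic and 46329, 38671, 28025 and 32391 in non-diabetic RBX mice. It was 15104, 18265, 21017 and 14675 in diabetic and 21853, 22053, 23267 and 20646 in diabetic RBX mice. All 4 non-diabetic RBX mice were above the other 12, a pattern that was not counted over all probe sets. Over all probe sets 11.9% were higher without overlap in these than in untreated non-diabetic mice, and 5.3% were lower without overlap in diabetic RBX than in non-diabetic RBX mice. Igfbp5 rose 2.24-fold with RBX in non-diabetic mice, from 15966 ± 1524 to 36354 ± 7957 (log2 1.17, SE 0.14, limma adjusted p = 1.36e-05). In diabetic mice the value was 0.36 (SE 0.14, adjusted p = 0.368). The interaction passed, at -0.81 (SE 0.19, adjusted p = 0.0143). With RBX in both groups Igfbp5 was lower in diabetic than in non-diabetic mice (log2 fold change -0.70, SE 0.14, adjusted p = 0.00463), and without RBX the value was 0.10 (adjusted p = 0.819). The other probe set (1422313_a_at) had 0.11 for RBX in non-diabetic mice (SE 0.32, adjusted p = 0.838) and did not show the rise.

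Igfbp6, which prefers IGF-2 over IGF-1, was measured by 1 probe set (1417933_at). It read 3954, 3774, 4394 and 3943 in non-diabetic and 12751, 8782, 6076 and 6554 in non-diabetic RBX mice. It read 7053, 5096, 5271 and 4296 in diabetic and 5699, 5680.2, 6349 and 5955 in diabetic RBX mice. Non-diabetic RBX mouse 1 was the highest of all, and only diabetic mouse 4 reached into the range of the untreated non-diabetic mice. Igfbp6 rose 2.04-fold with RBX in non-diabetic mice, from 4016 ± 265 to 8541 ± 3045 (log2 1.03, SE 0.18, limma adjusted p = 0.000474). For diabetes without RBX it had 0.41 (SE 0.18, adjusted p = 0.326) and for RBX in diabetic mice 0.15 (SE 0.18, adjusted p = 0.822). The interaction was -0.88 (SE 0.26, adjusted p = 0.0366), and diabetes with RBX gave -0.47 (adjusted p = 0.124). The interaction call of Igfbp6 held only when the array left out was diabetic mouse 4, non-diabetic mouse 3 or non-diabetic RBX mouse 1, 3 or 4.

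Igfbp7 fell with RBX in non-diabetic mice on both of its tested probe sets, alone among the binding proteins. On 1423584_at it read 89341, 85909.8, 88096 and 83704 in non-diabetic and 57228, 73468, 63620.5 and 48770.3 in non-diabetic RBX mice. Diabetic mice read 77604, 85908, 73778 and 82831, and diabetic RBX mice 82492, 80132, 82372 and 68480.3. On 1423585_at the values were 6101, 5772, 5347 and 5372 in non-diabetic and 2946, 4026, 2343 and 2374 in non-diabetic RBX mice. They were 5441, 5566, 4897 and 5539 and 5349, 5024, 4666 and 4042 in diabetic mice without and with RBX. On both probe sets all 4 non-diabetic RBX mice were below all 4 untreated ones, as were 12.9% of all probe sets. The log2 fold changes for RBX in non-diabetic mice were -0.53 (SE 0.11, limma adjusted p = 0.00135) and -0.98 (SE 0.14, adjusted p = 8.62e-05). In diabetic mice the values were -0.032 and -0.17 (adjusted p = 0.946 and 0.713). The interaction passed on both, at 0.50 (SE 0.15, adjusted p = 0.0422) and 0.81 (SE 0.20, adjusted p = 0.017). With RBX in both groups diabetic mice were higher by 0.38 and 0.74 (adjusted p = 0.0354 and 0.00455). The calls of 1423584_at for the interaction and for diabetes with RBX were both lost without any 1 of diabetic RBX mice 1, 2 and 3 and non-diabetic RBX mice 1 and 4; the former was also lost without diabetic mouse 1, 3 or 4 or any non-diabetic mouse. Both were also lost with centring on the 75th percentile, no filter and no intensity trend. Quantile normalization moved the fall of 1423584_at from -0.53 to -0.85 and its interaction to 0.75.

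**Figure D3:**
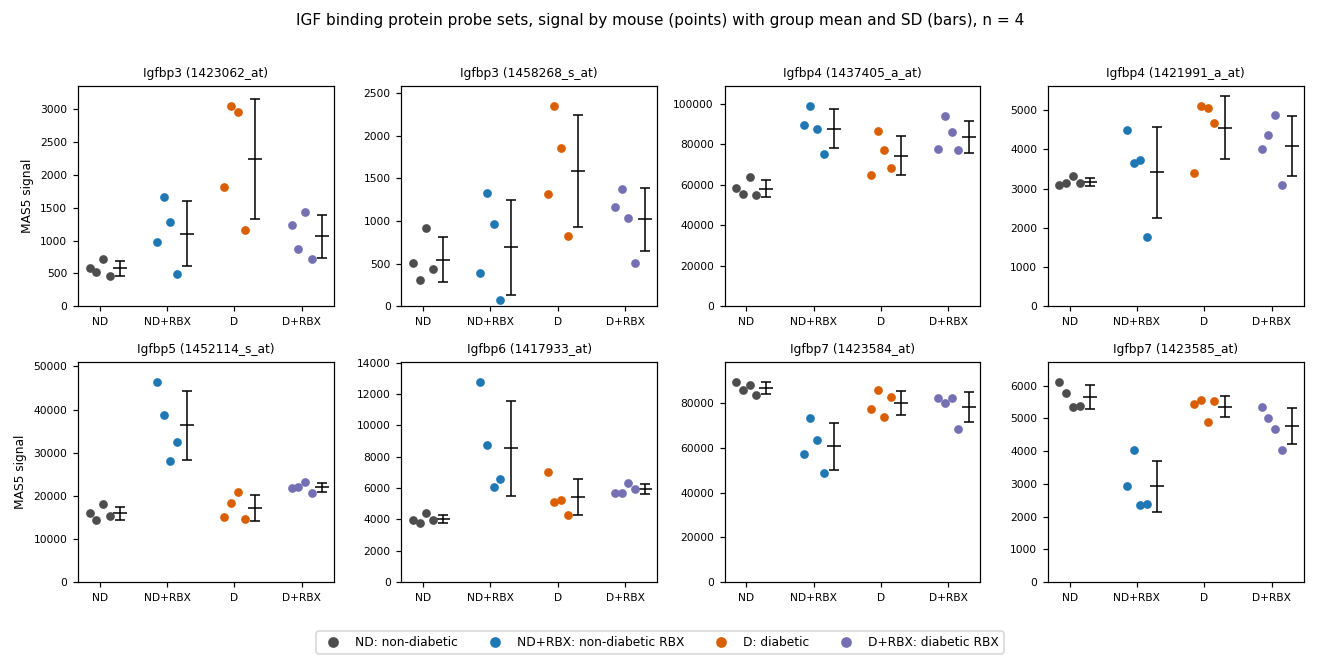
MAS5 signal (vertical axis) of 8 probe sets of Igfbp3, Igfbp4, Igfbp5, Igfbp6 and Igfbp7, with a point per mouse and the group mean and SD beside it, for the 4 groups of 4 mice (horizontal axis). Igfbp3 is highest on average in diabetic mice, while Igfbp5 (1452114_s_at) is highest and Igfbp7 lowest in non-diabetic RBX mice.

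Beside these changes of Igfbp4, Igfbp5, Igfbp6 and Igfbp7 in non-diabetic RBX mice, log2 cre was 1.18 and the log2 Actb ratio 1.04 higher on the same arrays. Among the 4 non-diabetic RBX mice themselves, Igfbp5 (1452114_s_at) and Igfbp6 were highest in mouse 1, whose cre signal was the lowest of the 4. Igfbp4 (1437405_a_at) and Igfbp7 (1423584_at) were lowest in mouse 4, whose cre signal was the highest, and Igfbp7 on 1423585_at was lowest in mice 3 and 4, the pair with the highest cre. Igfbp5 and Igfbp6 were lowest in mouse 3, not in mouse 4. These orders rest on 4 arrays and were not tested. The cre signals of the non-diabetic and non-diabetic RBX arrays did not overlap, so cre and RBX cannot be told apart between these groups. With cre as a covariate Igfbp5 was 1.34 (SE 0.28, limma adjusted p = 0.0685), Igfbp6 1.62 (SE 0.35, adjusted p = 0.0713), and Igfbp7 (1423585_at) -0.52 (SE 0.28, adjusted p = 0.445). With the Actb ratio they were 1.03 (adjusted p = 0.0705), 0.96 (adjusted p = 0.188) and -1.06 (adjusted p = 0.074). None of the 12 member probe sets called for RBX in non-diabetic mice was called with either covariate, when 0% and 0.813% of all probe sets were.

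**Figure D4:**
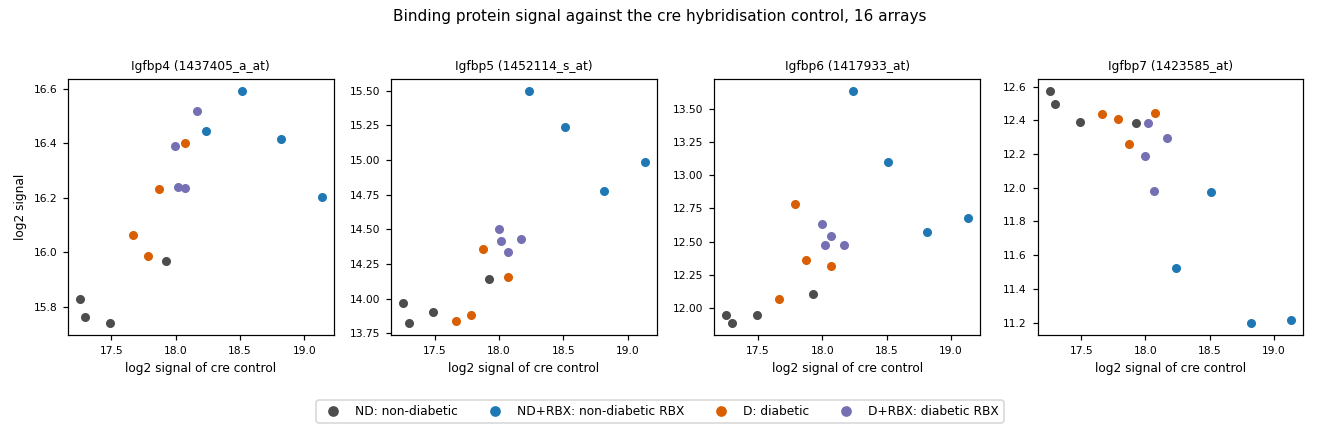
Log2 signal of 1 probe set each of Igfbp4, Igfbp5, Igfbp6 and Igfbp7 (vertical axes) against the log2 signal of the cre hybridisation control (horizontal axes), with a point per array and colours for the 4 groups. The 4 non-diabetic RBX arrays are those with the highest cre signal, and among them Igfbp5 and Igfbp6 are highest where cre is lowest, Igfbp4 is lowest where cre is highest, and Igfbp7 is lowest on the 2 arrays of highest cre. These orders of 4 arrays were not tested.

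Markers of other cell types also differed between these groups. Their counts stand beside 13% of all probe sets called higher and 14.6% called lower with RBX in non-diabetic mice. With RBX in non-diabetic mice the markers of mesothelium, a cell layer covering serous surfaces, rose in 2 of the 3 tested of 6 listed, and their summed signal was 999.9 to 2816 in non-diabetic and 3987 to 11402 in non-diabetic RBX mice. Adventitial fibroblast markers rose in 3 of 6 (278023 to 382217 against 294418 to 470361), endothelial markers in 5 of 6 (32293 to 36121 against 46915 to 68482) and macrophage markers in 5 of 6 (136812 to 207500 against 197285 to 295214). White adipocyte markers rose in 1 of 4 tested (12734 to 20218 against 11373 to 45148) and brown adipocyte markers in 1 of 6 (20273 to 33341 against 26602 to 119257). Contractile smooth muscle markers fell in 3 of 6 and rose in 1 (403877 to 439578 against 288465 to 447255). No marker was listed at 0, and the part of these cell types in the Igf1, Igf2, Igf1r and binding protein values was not tested.

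Igfbp2, a binding protein lowered by insulin in liver and made by adipocytes and other cells, had 1 probe set (1454159_a_at) and passed in none of the 7 comparisons. It read 4953, 4643, 3033 and 3676 in non-diabetic, 2702, 2291, 2108 and 7705 in non-diabetic RBX, 3612, 3888, 3256 and 6560.1 in diabetic and 4266, 2454, 3557 and 1945 in diabetic RBX mice. All groups overlapped, and non-diabetic RBX mouse 4 was the highest of the 16. The 95% intervals were -0.65 to 0.77 for diabetes without RBX and -1.22 to 0.20 for RBX in diabetic mice. The 3 member probe sets below the filter ranged from 11.9 to 231 for Igf2 (1415931_at), 44.3 to 539.5 for Igf1r (1452108_at) and 25.2 to 653 for Igfbp7 (1437804_at), and were not tested.

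The averaged effects give the members with the arrays of both strata. Averaged over mice with and without RBX, diabetes changed 0 of the 25 in limma, against a background of 0.0445%. The smallest adjusted p was 0.147 for Igf1r (1452982_at, 0.40). At an unadjusted p under 0.05 were 12 of the 25 and 2341 of all 22496 probe sets. The 12 include several probe sets of the same gene. Both Igfbp3 probe sets are among them, with the diabetic mice for whose Igfbp3 signal the family was selected. The count is therefore a description. Averaged over diabetes, RBX raised 8 of 25 and lowered 2, against 7.93% raised and 9.29% lowered over all probe sets. Besides Igf2 these were 1 probe set of Igf1 (1437401_at, 0.31, adjusted p = 0.0446), 4 of Igfbp4 (0.35 to 0.40), Igfbp5 (1452114_s_at, 0.76, adjusted p = 0.000117), Igfbp6 (0.59, adjusted p = 0.00482) and, downward, both probe sets of Igfbp7 (-0.28 and -0.58). The Igf1 call was lost without diabetic mouse 1 or 4, diabetic RBX mouse 1, 2 or 4, non-diabetic mouse 2 or 4 or non-diabetic RBX mouse 1, 2 or 3. For the interaction 6 probe sets were above 0 and 3 below among the 9 called (5.89% and 3.97% over all), those of Igf1r and Igfbp7 being above and those of Igfbp3, Igfbp5 and Igfbp6 below. That of Igfbp3 contains the diabetic values for which the family was selected and is given as a description.

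Other genes of the pathway were taken from a list of 41, of which 32 had a probe set above the filter, the one of highest mean being used. For diabetes without RBX 0 of 32 passed in limma (7 at an unadjusted p under 0.05), with a median of -0.025, and for RBX in diabetic mice 0 of 32 (3 at an unadjusted p under 0.05), with a median of 0.027. Of all 22496 probe sets, 3038 and 2349 had an unadjusted p under 0.05 in these 2 comparisons. With RBX in non-diabetic mice 6 rose and 7 fell, with a median of -0.057, against the background of 27.7%. Among the genes that act on binding proteins, Adamts1, a secreted protease, fell (-1.25, adjusted p = 9.92e-06), as did Htra1, a secreted serine protease with a binding-protein-like domain (-0.48, adjusted p = 0.000255). Stc1, a stanniocalcin, rose (1.15, adjusted p = 0.0102), and the protease gene Pappa was at 0.98, adjusted p = 0.115. Igf2bp3, which binds IGF-2 mRNA, rose (1.33, adjusted p = 0.0187).

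In the receptor pathway Irs2, an adaptor of the insulin and IGF receptors, rose (1.23, adjusted p = 0.0121), while its relative Irs1 fell (-0.49, adjusted p = 0.0346). The adaptor genes Shc1 (-0.42, adjusted p = 0.0134) and Grb14 (-1.04, adjusted p = 0.00347) and the kinase genes Pik3ca (-0.42, adjusted p = 0.0143) and Pdpk1 (-0.58, adjusted p = 0.00453) fell. The transcription factor gene Foxo1 (0.45, adjusted p = 0.00323), the mTOR inhibitor gene Tsc2 (0.67, adjusted p = 0.00187) and Stat5a of the growth hormone axis (0.56, adjusted p = 0.0442) rose. With RBX in both groups 4 rose and 1 fell in diabetic against non-diabetic mice, against 7.46%. Those that rose were Adamts1 (0.79, adjusted p = 0.00242), Htra1 (0.38, adjusted p = 0.00675), Pik3ca (0.48, adjusted p = 0.019) and Socs2, a feedback inhibitor of growth hormone signalling (0.44, adjusted p = 0.0455), and Tsc2 fell (-0.66, adjusted p = 0.00729). For diabetes without RBX the 4 pathway genes of smallest p, none past the threshold in limma, were Grb14 (-0.86, adjusted p = 0.103), Irs2 (0.92, adjusted p = 0.23), Adamts1 (-0.34, adjusted p = 0.294) and Pappa (1.04, adjusted p = 0.326). For RBX in diabetic mice they were Shc1 (-0.30, adjusted p = 0.396), the kinase gene Jak2 (0.25, adjusted p = 0.41), the adaptor gene Grb10 (-0.26, adjusted p = 0.453) and Stc2, a stanniocalcin (0.41, adjusted p = 0.545).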

How the data were processed

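Total RNA was extracted from whole aorta with Trizol, and biotinylated cRNA was made from 2 ug of it, per the labels' protocols. The deposited values are intensity on a linear scale, made by the authors with MAS5 per the submitters' processing notes (its version is not given). The mean of each array without the outer 2% at either end was 1500.01, so every array had been scaled to 1 average, against which all changes are read. No detection calls were used. Symbols came from GEO's platform annotation. All 28 member probe sets matched a RefSeq gene by Entrez identifier.

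The log2 of each value was used without an offset. The 64 control probe sets, and those with a mean log2 signal at or below the median (a signal of 383), were left out. The remaining 22496 were fitted one by one with limma 3.58.1 in R 4.3.3 on all 16 arrays, with 4 group means, 12 residual degrees of freedom and an intensity trend. Two-sided p-values were adjusted by Benjamini-Hochberg over all 22496. The fit was tested on simulated data. The members and lists were chosen with earlier results of these data known. Every member probe set was named; pathway genes were named when called between 2 groups or, up to 4 per comparison, for their small p. Nothing says whether mice shared a cage or batch. The number of arrays limits the precision.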

Additional observations from a re-analysis of the deposited data

Results flagged for a closer look

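Of 112 sets of 4 values (28 probe sets in 4 groups), 5 held 1 mouse whose gap to the others exceeded Dixon's 95% critical value, where chance alone gives about 5.6. Igf1 (1452014_a_at) read 7038 in non-diabetic mouse 3, against 4839.8 to 4990.4 in the other non-diabetic mice. Igf1r (1452108_at, below the filter) read 44.3 in diabetic mouse 1 and 175 to 217 in the others. Igf2r (1424112_at) was 3886 in non-diabetic mouse 2 and 3026 to 3138 in the others. Igfbp4 (1421992_a_at) was 11807 in non-diabetic RBX mouse 4 and 19901 to 21387 in the others. Igfbp7 (1423584_at) was 68480.3 in diabetic RBX mouse 4 and 80132 to 82492 in the others.

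The effect of RBX differed between diabetic and non-diabetic mice, by the interaction in limma, on 9 member probe sets. It was 1.01, 1.37, 0.96 and 0.71 on the Igf1r probe sets 1426565_at, 1428967_at, 1446303_at and 1452982_at, and 0.50 and 0.81 on the Igfbp7 probe sets 1423584_at and 1423585_at. It was -0.81 for Igfbp5 (1452114_s_at), -0.88 for Igfbp6 and -1.85 for Igfbp3 (1423062_at), the last being a description, since it contains the diabetic values for which the family was selected. For Igf1r and Igfbp7 no single array left out turned the sign of any of the 6.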

How the results depend on the processing

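Called members were counted again under 14 alternatives and with each array left out. For RBX in non-diabetic mice 12 were called, 0 with the cre or the Actb covariate, 6 of 10 genes with 1 probe set per gene and 7 with the mean of a gene's probe sets. Over all genes 31.7% and 28.7% were called in the last 2 settings. Under the same 4 settings the averaged RBX effect went from 10 to 0, 0, 6 and 5, and the interaction from 9 to 0, 0, 5 and 3. The shares called over all rows were 0.0178%, 0%, 19.9% and 16.3% for averaged RBX. For the interaction they were 0.0133%, 2.85%, 11.5% and 9.78%. Diabetes with RBX went from 5 to 0 with cre and 4 with the Actb ratio. It had 3 with 1 probe set per gene and 2 with the mean. In these settings 0.929%, 3.08%, 7.1% and 6.05% of all rows were called. Diabetes without RBX went from 1 to 0 with either covariate, the mean, no intensity trend or the filter at the 70th percentile (which leaves Igfbp3 out), to 12 with array weights, when 7.97% of all probe sets were called instead of 0.369% (3 probe sets of Igf1, 1 of Igf1r, 2 of Igfbp3 and 6 of Igfbp4) and to 2 with the replicate block. With the block the other counts were 13 for RBX in non-diabetic mice (27.3% of all probe sets), 10 for averaged RBX (16.7%) and 12 for the interaction (10.4%). They were 5 for diabetes with RBX (7.44%) and 0 for RBX in diabetic mice and averaged diabetes. All of these were within 1.5 times of the counts without it. For diabetes without RBX 0.72% of all probe sets were called with the block. The deviations of same-numbered arrays correlated at -0.11 to 0.10, which cannot exclude a shared batch or cage. Both covariates differ between groups, and the SE of Igfbp5 for RBX in non-diabetic mice went from 0.14 to 0.28 with cre. With 1 array left out the counts ran from 9 to 14 for RBX in non-diabetic mice, 4 to 7 for diabetes with RBX, 0 to 3 for diabetes without RBX (0 without non-diabetic mouse 1, 2 or 4 or diabetic mouse 2 or 3, 2 without diabetic mouse 1 and 3 without non-diabetic mouse 3 or non-diabetic RBX mouse 4), 5 to 10 for the interaction (5 without diabetic mouse 3, diabetic RBX mouse 1 or non-diabetic mouse 2 or 4), 9 to 12 for averaged RBX, and 0 for RBX in diabetic mice and averaged diabetes. With 1 array left out the share called over all probe sets ran from 20.3% to 27.9% for RBX in non-diabetic mice. It ran from 4.17% to 9.26% for diabetes with RBX and from 0.0133% to 1.66% for diabetes without RBX. For the interaction it ran from 5.67% to 11.9%, and for averaged RBX from 12.8% to 18.5%. The only called values that turned sign were those of Igf1r (1426565_at) for RBX in non-diabetic mice, 0.61 with cre and 0.43 with the Actb ratio. Centring on the 75th percentile, quantile normalization, an offset, no filter and a robust variance kept each count within 1.5 times, though not every call.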
